A study of Mus musculus with 6 samples.

Results

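The genes described here encode glycosyltransferases, which build the sugar chains of proteins and lipids, and carbohydrate sulfotransferases, which add sulfate to them. They were chosen by name alone: every gene whose symbol begins with St3gal, St6gal, St8sia, B3gnt, B3galt, B4galt, Fut, Mgat, Galnt, Gcnt or Chst followed by a digit, or by the letter n as in St6galnac4. The rule found 75 of the 16135 genes listed in any library, in 11 name families. Of the 95 protein-coding RefSeq symbols that the rule would match, the other 20 were listed in no library. Each of the 75 was matched to RefSeq by its Entrez gene number, and positions below are from that table (build GRCm38.p6).

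RNA was sequenced from common dendritic cell progenitors, which develop into dendritic cells and were taken from bone marrow of wildtype C57BL/6 mice aged 6 to 8 weeks. No agent or transgene is named in the labels. Cells were sorted into 3 subsets by CD115, the surface receptor of the growth factor M-CSF, and by Ly6C, an antigen of monocytes and their precursors, with 2 libraries each: CD115+Ly6C-, here called single-positive; CD115+Ly6C+, here called double-positive; and CD115-Ly6C-, here called double-negative. No label ties the 2 libraries of a subset to different animals or sorts, so the p-values speak of the spread among these libraries alone, and that spread may be technical.

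Sugar chains are built stepwise in the endoplasmic reticulum and the Golgi apparatus, each enzyme adding 1 sugar from an activated donor to the product of an earlier enzyme. N-linked chains are branched by the Mgat enzymes, O-linked chains are begun by the Galnt enzymes, and both are lengthened with lactosamine and capped with sialic acid or fucose. In blood cells the capped chains serve as ligands for selectins, siglecs and galectins, and on progenitors they are known for roles in homing to and leaving the marrow. The messenger RNA of an enzyme is measured here, and neither its protein nor the sugar chains are.

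Expected counts, the reads that the quantifier RSEM assigned to each gene by estimation, summed to between 17961541 and 19450329 per library. Of these, 0.294% to 0.381% fell on the 75 genes. The 7 marker genes of common dendritic cell progenitors, Flt3 and Csf1r among them, had reads in each library and summed to between 3820 and 4420 CPM (counts brought to 1 library size by TMM scaling, which corrects for library composition). Where 3 pairs of values stand without names, they are single-positive, double-positive and double-negative, with replicate 1 before replicate 2. Csf1r, which encodes CD115, stood at 414 and 513 CPM in single-positive cells, 553 and 531 in double-positive cells, and 213 and 259 in double-negative cells, so the transcript was not absent in the CD115-negative gate. Ly6c2 stood at 121 and 188, 1440 and 1400, and 41.8 and 61.8 CPM in the same order. The sum of the progenitor list was mostly Irf8, at 2020 to 2720 CPM, and hides shifts of other genes on it. Flt3 stood at 666 and 657, 373 and 342, and 1140 and 1060 CPM, and Kit at 108 and 94.9, 58.8 and 48.9, and 189 and 169. Spi1, Csf2ra and Cx3cr1 had the reverse order, highest in double-positive cells and lowest in double-negative cells. Markers of other cells also moved between the subsets. The 13 genes of the neutrophil list had reads and summed to 284 and 1050 CPM in single-positive cells, 4610 and 4310 in double-positive cells and 419 and 229 in double-negative cells. Csf3r of that list went another way, at 30.1 and 32.3, 34.3 and 29.2, and 65.7 and 57.9 CPM. The 8 monocyte genes, Ly6c2 among them, summed to 2850 and 2980, 7090 and 7850, and 988 and 1270 CPM. The 6 conventional dendritic cell genes summed to 67.6 and 75.9, 133 and 138, and 69.8 and 73.7 CPM. The 8 B cell genes summed to between 92.8 and 110 CPM in all 6 libraries, mostly through Cd79b, but Ebf1 stood at 7.40 and 7.66 CPM in double-negative cells against at most 0.477 elsewhere, and Pax5 was at 0 in 5 of 6 libraries. The 7 plasmacytoid dendritic cell genes summed to 441 and 446, 412 and 351, and 571 and 610 CPM. Of them, Ccr9 stood at 1.05 and 1.33, 0.613 and 0.659, and 46.7 and 28.3 CPM, and Siglech, Spib and Pacsin1 were also highest in double-negative cells. Bst2 was highest in double-positive cells, Tcf4 overlapped between the Ly6C- subsets, and Klk1 was near 0. In such bulk samples, fewer cells of a type and less RNA per cell cannot be told apart, and the part of these markers in the results below was not tested.

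A few enzymes made up most of the transcripts. On the scale of FPKM (fragments per length of transcript and per size of library, which lets genes be compared), 24 of the 75 genes had a mean over the 6 libraries of at least 10, 22 lay between 1 and 10, and 29 were below 1. The 10 highest held 71.2% of the summed FPKM of the 75. Mgat1, which opens the branching of N-linked chains, had the highest mean at 187 FPKM, followed by B3gnt2, the main enzyme of lactosamine chain extension, at 154 and by Mgat2, which adds the next branch, at 102. Fut7, the leukocyte fucosyltransferase of selectin ligands, stood at 76.9, the polysialyltransferase gene St8sia4 at 76.0 and B4galt4, a galactosyltransferase of lactosamine synthesis, at 75.2. The remaining genes of the 10 highest were Gcnt2 at 44.8, Chst12 at 43.3, B4galt1 at 42.5 and St3gal4 at 41.7 FPKM.

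**Figure D1:**
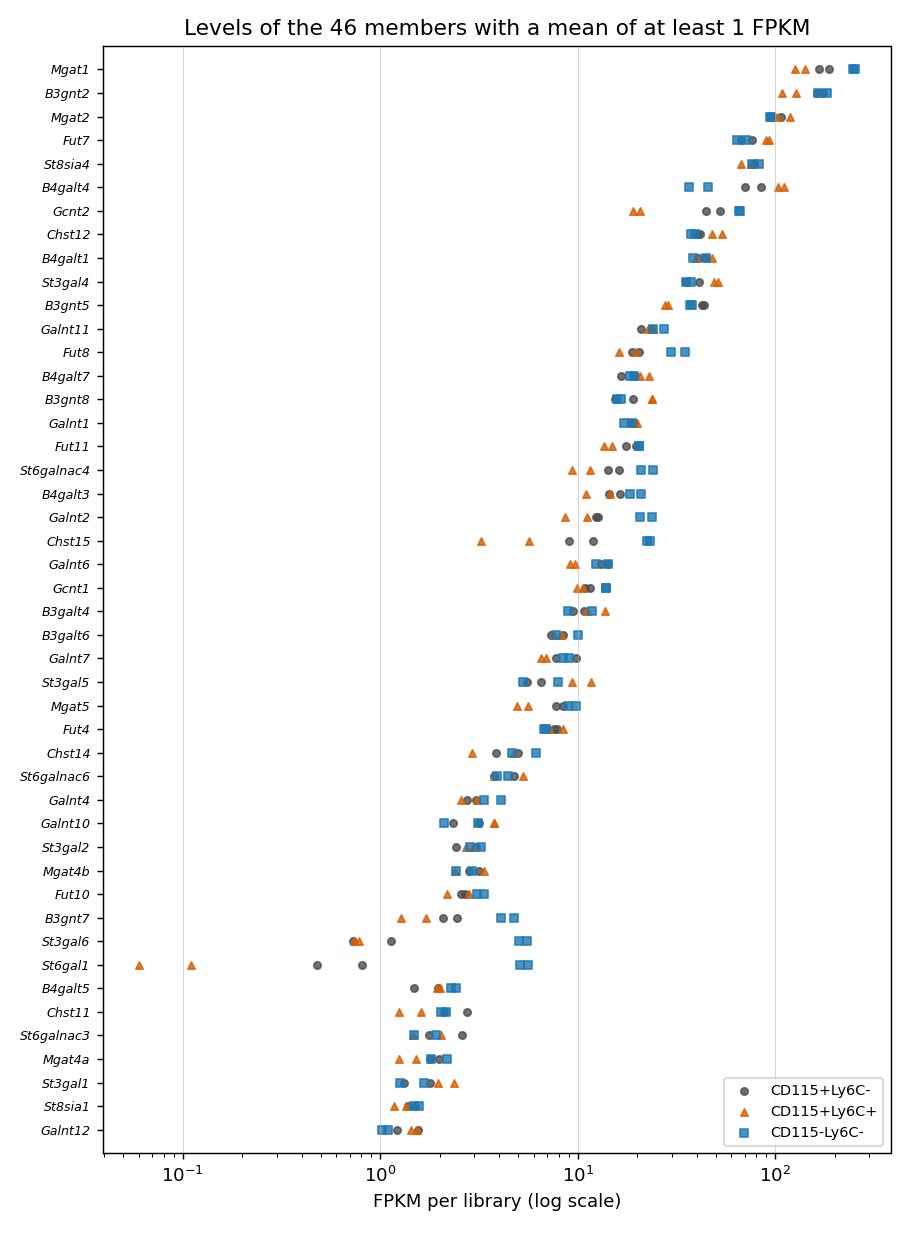
FPKM in each of the 6 libraries (log axis) of the 46 genes with a mean of at least 1 FPKM, ordered by that mean, with 1 point per library and 1 symbol per subset. Mgat1 is at the top with a mean of 187 FPKM, and for St6gal1, Gcnt2 and Chst15 the CD115+Ly6C+ points lie to the left of the others.

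Within most families 1 gene led. St8sia4 held 97.6% of the summed FPKM of the 4 St8sia genes, Gcnt2 77.6% of the 4 Gcnt genes, St3gal4 73.1% of the 6 St3gal genes and B3gnt2 72.3% of the 8 B3gnt genes. Chst12 held 68.4% of the 11 Chst genes, St6galnac4 66.1% of the 4 genes whose names begin with St6gal, Mgat1 62.1% of the 6 Mgat genes and Fut7 60.0% of the 7 Fut genes. B3galt4, which makes a ganglioside core, held 56.1% of the 4 B3galt genes, and B4galt4 48.2% of the 7 B4galt genes. The 14 Galnt genes were spread most evenly, with Galnt11 at 27.4%.

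Summed by family, the Gcnt genes stood at 64.9 and 57.4 FPKM in single-positive cells, 30.0 and 31.0 in double-positive cells and 82.0 and 81.4 in double-negative cells. The Mgat sum was 288 and 297, 239 and 269, and 361 and 357 FPKM in the same order, and the St6gal sum 22.6 and 22.0, 19 and 14.6, and 35.1 and 32.2. For all 3 families the subsets did not overlap, with double-negative cells highest and double-positive cells lowest. The B4galt sum ran the other way, at 148 and 163 FPKM in single-positive cells, 188 and 188 in double-positive cells and 117 and 132 in double-negative cells. The St3gal sum was likewise highest in double-positive cells, at 69.9 and 64.0 FPKM against 47.6 to 54.0 in the other libraries. These sums are descriptions and each follows its leading genes.

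**Figure D2:**
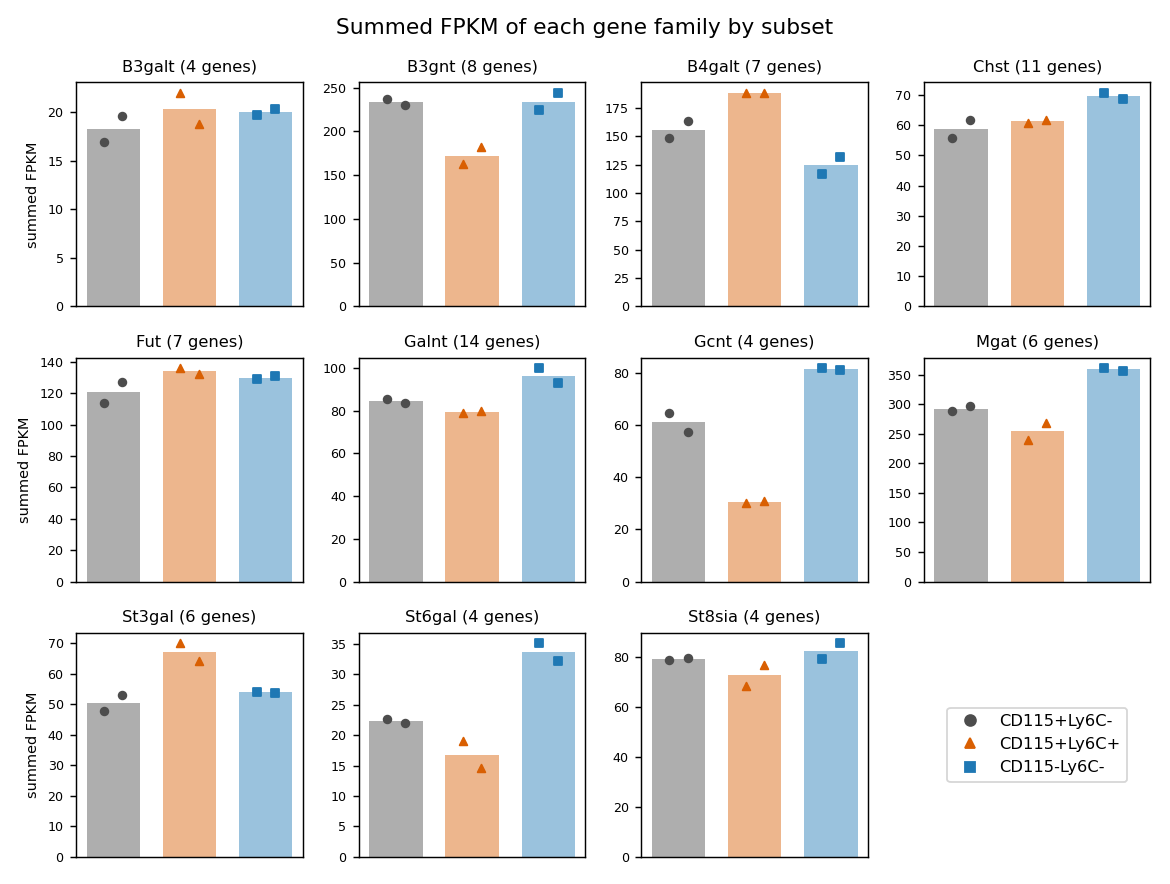
Summed FPKM of each of the 11 name families, with bars for the mean of the 2 libraries of a subset, points for the libraries, and axes from 0. The Gcnt, Mgat and St6gal panels have the lowest bar in CD115+Ly6C+ and the highest in CD115-Ly6C-, and the B4galt panel has the reverse order.

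Counts were compared between subsets with edgeR's quasi-likelihood F test, fitted on all 12127 genes that passed a filter on low counts, and a gene was called where its p, adjusted over those 12127 genes by Benjamini-Hochberg, was under 0.05. Of the 75 genes, 59 passed the filter. The other 16, which include 6 Chst and 4 Galnt genes, reached at most 0.41 FPKM and 33 counts in any library and were not tested. Of the 59, 28 were called in at least 1 comparison and 31 in none. Called in all 3 comparisons were 4 genes: Gcnt2, St6gal1, Chst15 and B4galt4. A further 9 were called in 2 comparisons and 15 in 1. The 3 comparisons share libraries, so their calls are not independent of each other.

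Between the CD115+ subsets, 4 of 59 genes were higher in double-positive cells and 6 lower. Genes that fell were the branching enzyme genes Gcnt2 and Gcnt4, the sialyltransferase gene St6gal1, the chondroitin sulfotransferase gene Chst15, B3gnt5 and Mgat5. Genes that rose were Fut7, St3gal4, St3gal5 and B4galt4, each by less than 1 on the log2 scale. The 10 calls are 16.9% of the 59, against a background of 9.60% of all genes tested (5.26% higher and 4.34% lower). The median log2 fold change of the 59 was -0.06, against -0.01 over all genes. Groups did not overlap (both libraries of a subset above both of the other) for 36 of the 59 and for 57.2% of all genes. Of the 10 calls, those of Gcnt2 and Gcnt4 held in each of the 16 alternative analyses, and the split between higher and lower depended on the analysis: no gene was higher and 9 lower with library totals as the scale, and 0 and 8 with upper-quartile scaling, 0 and 6 with limma on log2(FPKM + 1), and 0 and 4 with a trend on gene length removed. Leaving out single-positive replicate 1 or replicate 2 left 3 calls each, and leaving out double-positive replicate 1 or replicate 2 left 4 and 2. The neutrophil, monocyte and conventional dendritic cell marker lists were also highest in double-positive cells, with the sums given above, and their part in these calls was not tested.

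Between the Ly6C- subsets, 7 of 59 genes were higher in double-negative cells and 1 was lower. The genes that rose were the sialyltransferase genes St6gal1, St3gal6 and St8sia6, the core fucosyltransferase gene Fut8, Galnt2, Chst15 and Gcnt2, and the gene that fell was B4galt4. The 8 calls are 13.6% of the 59, below the background of 15.2% (8.43% higher and 6.78% lower), so the share is not above that of all genes. The median log2 fold change was 0.03, against 0.02 over all genes, and groups did not overlap for 33 of the 59 and for 61.9% of all genes. Calls of St6gal1, St3gal6 and B4galt4 held in each of the 16 alternatives. With the length trend removed 5 genes were higher and 2 lower. Without single-positive replicate 1, without its replicate 2 and without double-negative replicate 1, 3 genes were called each, and without double-negative replicate 2, 5 were.

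The outer subsets, double-negative and double-positive, differed at 27 of 59 genes, 16 higher and 11 lower in double-negative cells. This is 45.8% of the 59, against a background of 39.3% (20.1% higher and 19.2% lower). The median log2 fold change was 0.22 (the same with genes at 0 counts set at their bound), against 0.03 over all genes. Over all genes tested, log2 fold changes in this comparison rose with gene length (Spearman 0.33). The 59 genes had a median length of 3344 bases, against 2810 over all genes tested. Groups did not overlap for 44 of the 59 and for 72.6% of all genes. Of the 27 calls, 15 held in each of the 16 alternatives: Gcnt2, Gcnt4, St6gal1, St3gal6, St6galnac4, Chst15, Mgat1, Fut8, Galnt2 and B3gnt7 among the higher, and B4galt4, Fut7, St3gal4, B3gnt8 and Chst12 among the lower. The other 12 were St8sia6, B3galt2, B3galt5, B3gnt2, B4galt6 and Mgat5, which were higher, and Galnt9, Galnt10, St3gal1, St3gal5, Mgat2 and B4galt7, which were lower. The split moved with scaling, to 21 higher and 7 lower with library totals, 19 and 8 with upper-quartile scaling, 18 and 6 with limma on log2(FPKM + 1) and 13 and 13 with the length trend removed. Without double-negative replicate 2, 17 genes were called.

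In all but 3 of the 28 called genes the single-positive mean lay between those of the outer subsets. Of the 28, 27 were called for a difference between the outer subsets, which by itself favours a middle single-positive mean. The share of all genes with such a middle mean was not counted, so no conclusion is drawn from it. The double-negative subset had the highest mean in 15 of the 28, the double-positive subset in 11 and the single-positive subset in 2. Over the 59 tested genes these counts were 27, 23 and 9, and over all genes tested the shares were 41.6%, 37.2% and 21.2%.

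**Figure D3:**
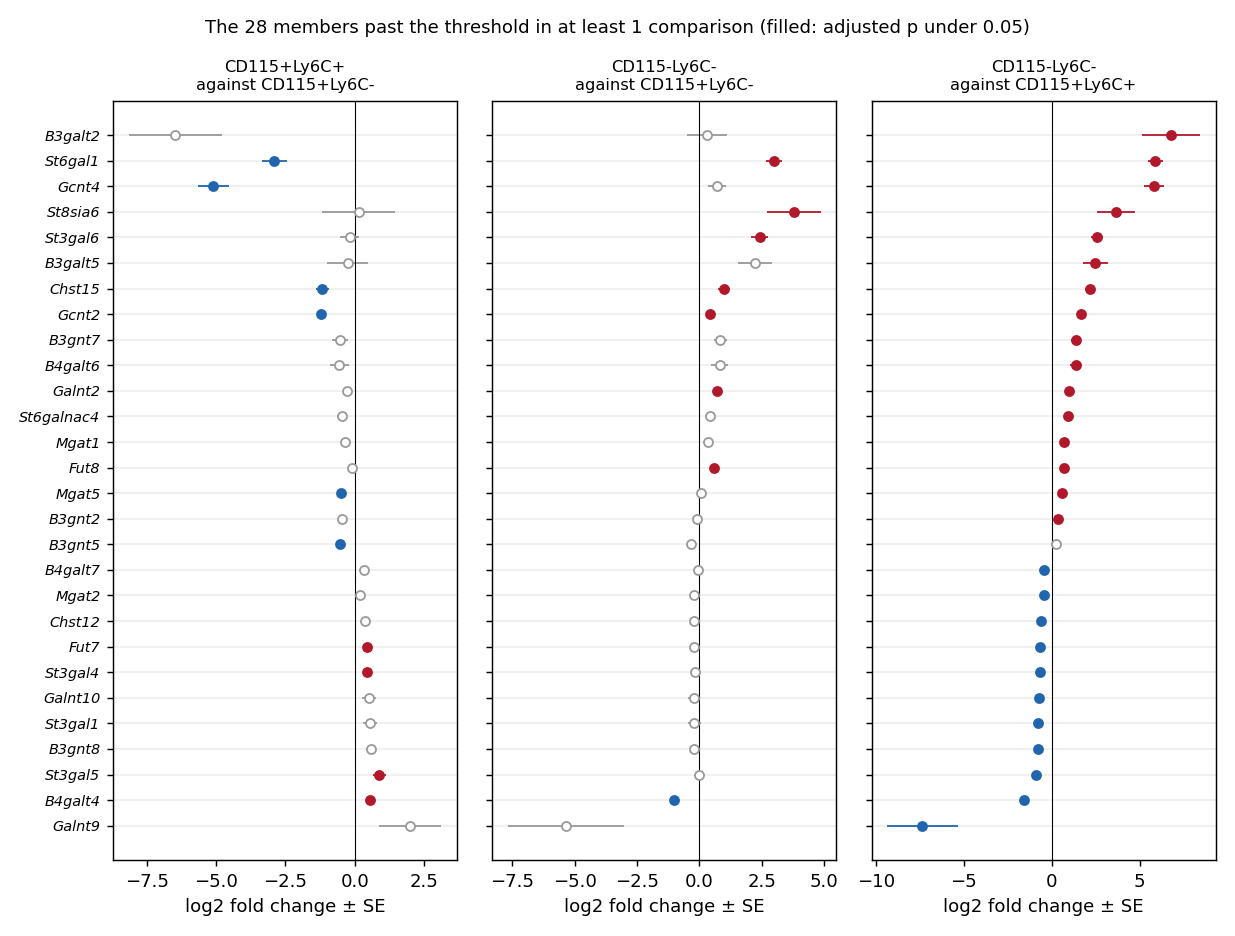
Log2 fold change ± SE of the 28 called genes in the 3 comparisons, with filled points where the edgeR adjusted p was under 0.05 (red higher, blue lower in the subset named first) and a separate horizontal scale per panel. B4galt4 is red in the left panel and blue in the other panels, and St6gal1 is the reverse; the points of B3galt2 and Galnt9, with 0 counts in a subset, depend on the prior count of the fit.

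Of the enzymes that branch N-linked chains, Mgat1 and Mgat2 were abundant in all 6 libraries. Mgat1 stood at 427 and 472 CPM in single-positive cells, 331 and 380 in double-positive cells and 580 and 582 in double-negative cells. No 2 subsets overlapped, and the double-negative subset exceeded the double-positive subset by 1.63-fold (log2 0.71 ± 0.11 SE, edgeR adjusted p = 0.00171). Mgat2, at 266 and 236, 262 and 312, and 213 and 217 CPM, went the other way and was 1.33-fold lower in double-negative cells than in double-positive cells (edgeR adjusted p = 0.0250). Mgat5 adds the branch that favours long lactosamine chains, and stood at 72.6 and 71.5 CPM in single-positive cells, 53.6 and 48.0 in double-positive cells and 69.3 and 80.1 in double-negative cells. Both double-positive libraries lay below the other 4. The log2 fold change was -0.50 ± 0.13 SE in double-positive against single-positive cells (edgeR adjusted p = 0.0423) and 0.56 ± 0.13 SE in double-negative cells against double-positive cells (edgeR adjusted p = 0.00928), and 0.05 with an edgeR adjusted p of 0.808 between the Ly6C- subsets. Fut8, which adds the core fucose, stood at 51.5 and 56.6, 54.9 and 46.9, and 86.6 and 78.6 CPM. Its CD115+ libraries overlapped, and the double-negative subset was above both by 0.61 ± 0.13 and 0.70 ± 0.13 SE on the log2 scale (edgeR adjusted p = 0.0190 and 0.00393). Mgat1 lies at chr11:49244191-49263027, Mgat5 at chr1:127204919-127488334 and Fut8 at chr12:77237430-77475998.

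Extension of lactosamine alternates a B3gnt enzyme, which adds N-acetylglucosamine, with a B4galt enzyme, which adds galactose. The extending gene with the highest level, B3gnt2, stood at 450 and 414 CPM in single-positive cells, 285 and 344 in double-positive cells and 381 and 434 in double-negative cells. It was lowest in double-positive cells, by 0.37 ± 0.13 SE on the log2 scale against double-negative cells (edgeR adjusted p = 0.0462), a call that held in 7 of 16 alternatives. Its partner B3gnt8 ran oppositely, at 23.1 and 29.4, 39.0 and 39.8, and 21.8 and 23.8 CPM, and was 1.73-fold lower in double-negative cells than in double-positive cells (edgeR adjusted p = 0.00556). B3gnt7, an enzyme of the lactosamine chains that carry keratan sulfate, was less abundant at 6.03 and 5.09, 4.35 and 3.35, and 10.7 and 9.35 CPM. Its level in double-negative cells was 2.59-fold that in double-positive cells (edgeR adjusted p = 0.00520).

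Among the galactosyltransferases, B4galt4 (chr16:38742220-38769054) changed in all 3 comparisons. It stood at 153 and 183 CPM in single-positive cells, 250 and 240 in double-positive cells and 72.1 and 92.8 in double-negative cells. The subsets did not overlap, and their order was the reverse of that of Gcnt2, St6gal1 and Chst15. The double-negative subset was below single-positive cells by 1.03 ± 0.15 SE on the log2 scale (edgeR adjusted p = 0.00363) and 2.97-fold below double-positive cells (edgeR adjusted p = 1.30e-04). The step between the CD115+ subsets was smaller at 0.54 ± 0.14 SE, with an edgeR adjusted p of 0.0497 that rose to 0.0642 with library totals and to 0.263 without single-positive replicate 1. B4galt1, which makes lactosamine in most tissues, stood at 195 and 178, 181 and 224, and 153 and 184 CPM and was called in no comparison (log2 fold changes 0.12, -0.14 and -0.26, SE 0.14 each).

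B4galt4 and St6gal1 were called in opposite directions in each of the 3 comparisons, so the windows before their RefSeq starts are shown. Each is the 250 bases 5′ of a transcript start (RefSeq promoter table, GRCm38.p6, + strand), in lower case with motif matches in capitals. The gene spans printed here come from the RefSeq gene table, and those of B4galt4 and St6gal1 begin inside the last bases of the window of B4galt4 and of the first window of St6gal1. B4galt4 has 1 start in the promoter table, with the window chr16:38742009-38742258, whose GC content is 59.2%; the capitals mark 1 match to the ETS core CCGGAA and 1 to the GC box GGGCGG, both on the other strand.
B4galt4: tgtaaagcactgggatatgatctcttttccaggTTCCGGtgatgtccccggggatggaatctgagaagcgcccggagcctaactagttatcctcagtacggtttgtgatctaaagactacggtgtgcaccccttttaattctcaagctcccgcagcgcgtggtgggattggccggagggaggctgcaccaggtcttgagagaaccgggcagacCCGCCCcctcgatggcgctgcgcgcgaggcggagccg
St6gal1 has 3 starts, with the windows chr16:23224490-23224739, chr16:23225771-23226020 and chr16:23290220-23290469 and a GC content of 47.2%, 52.8% and 49.6%. In the last 2 of them the capitals mark 1 match each to the C/EBP motif TTGCNNAA, on the printed strand at start 2 and on the other strand at start 3.
St6gal1 start 1: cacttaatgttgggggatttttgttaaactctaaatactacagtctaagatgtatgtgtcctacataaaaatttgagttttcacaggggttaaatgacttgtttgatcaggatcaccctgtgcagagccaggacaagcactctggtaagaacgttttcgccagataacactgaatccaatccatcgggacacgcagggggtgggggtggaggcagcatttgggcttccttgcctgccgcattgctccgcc
St6gal1 start 2: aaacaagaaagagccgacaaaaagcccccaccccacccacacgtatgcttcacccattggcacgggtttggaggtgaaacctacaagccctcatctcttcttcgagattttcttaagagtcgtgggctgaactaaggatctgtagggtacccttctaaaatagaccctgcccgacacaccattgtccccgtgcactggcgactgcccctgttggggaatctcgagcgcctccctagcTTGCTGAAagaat
St6gal1 start 3: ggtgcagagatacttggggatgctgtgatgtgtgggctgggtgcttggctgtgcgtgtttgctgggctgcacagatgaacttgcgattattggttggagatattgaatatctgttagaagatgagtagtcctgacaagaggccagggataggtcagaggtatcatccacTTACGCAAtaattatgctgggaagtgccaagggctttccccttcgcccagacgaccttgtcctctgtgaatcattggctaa
The letters GGGCGG, searched on both strands, were in 32.7% of the 32851 RefSeq windows of this length and in 48 of the 82 windows (58.5%) of the glycosylation genes, whose median GC content was 60.2% against 52.4%. Shares for the other motifs were 12% of all windows and 9.76% of theirs for CCGGAA, 9.56% and 7.32% for TTGCNNAA, and 13% and 12.2% for the E-box CAGCTG on both strands, with overlaps between motifs kept. A match is a description of the letters, and gene-level values do not show which start of St6gal1 was used.

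Lactosamine chains are branched by Gcnt2, the enzyme of the I blood group antigen, and Gcnt2 (chr13:40859768-40960892) was called in all 3 comparisons. It stood at 168 and 141 CPM in single-positive cells, 64.9 and 69.9 in double-positive cells and 213 and 210 in double-negative cells. No 2 subsets overlapped, with double-positive cells far below the others. The log2 fold change was -1.20 ± 0.12 SE between the CD115+ subsets (edgeR adjusted p = 0.00136), 0.45 ± 0.12 between the Ly6C- subsets (edgeR adjusted p = 0.0352) and 1.65 ± 0.12, a 3.13-fold difference, between the outer subsets (edgeR adjusted p = 4.37e-05). The middle value held in 10 of 16 alternatives and the other two in all. Gcnt4, a second branching gene of the same family (chr13:96924344-96950914), was rare at 2.99 and 3.34 CPM in single-positive cells and 5.49 and 5.03 in double-negative cells, and close to 0 in double-positive cells at 0.0557 and 0.120 CPM. These levels rest on 120 counts, 210 counts and 3 counts over the 2 libraries of each subset. The ratio of single-positive cells to double-positive cells was 36.5 (exact 95% interval 12.2 to 180, counting error only; edgeR adjusted p = 0.00223) and that of double-negative cells to double-positive cells was 60.7 (20.5 to 297; edgeR adjusted p = 1.46e-04). Gcnt1, which branches O-linked chains and was named after its values were seen, did not follow them: it stood at 49.4 and 51.5, 49.6 and 47.4, and 56.4 and 58.6 CPM and was called in no comparison.

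O-linked chains are begun by the Galnt enzymes, of which 10 of 14 passed the filter and 3 were called. Galnt2 (chr8:124231394-124345722) stood at 49.7 and 50.4 CPM in single-positive cells, 46.3 and 36.7 in double-positive cells and 86.0 and 77.1 in double-negative cells. Both double-negative libraries lay above the other 4, by 0.70 ± 0.14 SE on the log2 scale against single-positive cells (edgeR adjusted p = 0.0151) and 1.96-fold against double-positive cells (edgeR adjusted p = 0.00119). Galnt10 stood at 10.9 and 14.5, 18.1 and 18.4, and 13 and 9.06 CPM and was 1.65-fold lower in double-negative cells than in double-positive cells (edgeR adjusted p = 0.0403), a call that held in 9 of 16 alternatives. Galnt9 had 10 counts in single-positive cells, all in replicate 1, 37 counts in double-positive cells and 0 counts in double-negative cells. Galnt9 passed the filter through the double-positive libraries alone, where it is high, so its call is no support for a difference. Set against a floor of 3 counts over both libraries, it was at least 14.2-fold lower in double-negative cells than in double-positive cells (edgeR adjusted p = 0.0224). Galnt11, which had the highest mean FPKM of the family, stood at 57.2 and 50.0, 57.1 and 62.1, and 59.9 and 54.1 CPM and overlapped between all subsets.

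Sialyltransferases cap the chains, and the called genes differed in direction. St6gal1, which caps the lactosamine of N-linked chains at the 6 position of galactose and so makes the ligand of the B cell siglec CD22, lies at chr16:23224729-23360350. It stood at 3.30 and 1.91 CPM in single-positive cells, 0.446 and 0.240 in double-positive cells and 19.4 and 22.3 in double-negative cells, from 99 counts, 12 counts and 835 counts. The subsets lay far apart. Against single-positive cells, the log2 fold change was -2.89 ± 0.45 SE in double-positive cells (edgeR adjusted p = 0.00817) and 3.0 ± 0.33 SE in double-negative cells (edgeR adjusted p = 0.00138), and the outer subsets differed 59.3-fold (log2 5.89 ± 0.42 SE, edgeR adjusted p = 4.11e-05). The fall between the CD115+ subsets rests on few counts. Its log2 fold change was -2.53 without double-positive replicate 2, where the call was lost. The call was also lost by limma on log2(FPKM + 1), a scale that shrinks the changes of low genes (limma adjusted p = 0.0669). Of the 8 B cell markers, Cd79a and Ebf1 were also highest in double-negative cells (Cd79a at 13.8 and 11.1 CPM, and between 0.210 and 1.54 elsewhere), while Cd79b was lowest there at 76.6 and 82.0 CPM, Ms4a1 stood at 0.302 and 0, and the summed level of the list was 109 and 110 CPM against 92.8 to 109 elsewhere.

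Capping at the 3 position is done by the St3gal enzymes. St3gal6, an enzyme of selectin ligands at chr16:58469742-58524260, stood at 1.57 and 2.55 CPM in single-positive cells, 1.84 and 1.80 in double-positive cells and 10.4 and 11.7 in double-negative cells. The CD115+ libraries overlapped, and the double-negative subset was above them by 2.42 ± 0.34 SE and 2.60 ± 0.34 SE on the log2 scale (edgeR adjusted p = 0.00335 and 6.53e-04), the latter 6.06-fold. Its exons share 1603 bases with Dcbld2 on the other strand, a protein-coding gene listed at no more than 0.599 CPM. St3gal4, which also caps selectin ligands and was the most abundant of the family, had another order: 69.1 and 79.7, 104 and 101, and 62.7 and 68.1 CPM. It was 1.57-fold lower in double-negative cells than in double-positive cells (edgeR adjusted p = 0.00336), and higher in double-positive cells than in single-positive cells by 0.46 ± 0.12 SE on the log2 scale (edgeR adjusted p = 0.0445, a call held in 4 of 16 alternatives). St3gal1, which caps the core of O-linked chains, stood at 7.55 and 10, 13.9 and 11.9, and 8.61 and 6.67 CPM and was 1.69-fold lower in double-negative cells than in double-positive cells (edgeR adjusted p = 0.0406, held in 8 of 16). St6galnac4, which adds a further sialic acid to that core, moved oppositely at 59.4 and 50.6, 43.4 and 35.9, and 79.0 and 70.3 CPM. The subsets did not overlap, and the outer ones differed 1.88-fold (log2 0.91 ± 0.15 SE, edgeR adjusted p = 0.00195).

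The St8sia enzymes link sialic acids to each other. St8sia4, which makes polysialic acid, was abundant at 354 and 352, 296 and 331, and 313 and 341 CPM, with log2 fold changes of -0.17, -0.11 and 0.06 (SE 0.11 each) and no call. St8sia6 was rare, at 0.315 and 0.0531 CPM in single-positive cells, 0 and 0.419 in double-positive cells and 3.47 and 1.79 in double-negative cells, from 7 counts, 7 counts and 105 counts. Both double-negative libraries exceeded the other 4, and the log2 fold change was 3.79 ± 1.08 SE against single-positive cells (edgeR adjusted p = 0.0484) and 3.64 ± 1.08 SE against double-positive cells (edgeR adjusted p = 0.0275). St8sia6 passed the filter through the double-negative libraries alone, so these values describe a gene that had to differ. The first of these calls was lost on leaving out any 1 library of the subsets compared, with an edgeR adjusted p of up to 0.250 without double-negative replicate 1.

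**Figure D4:**
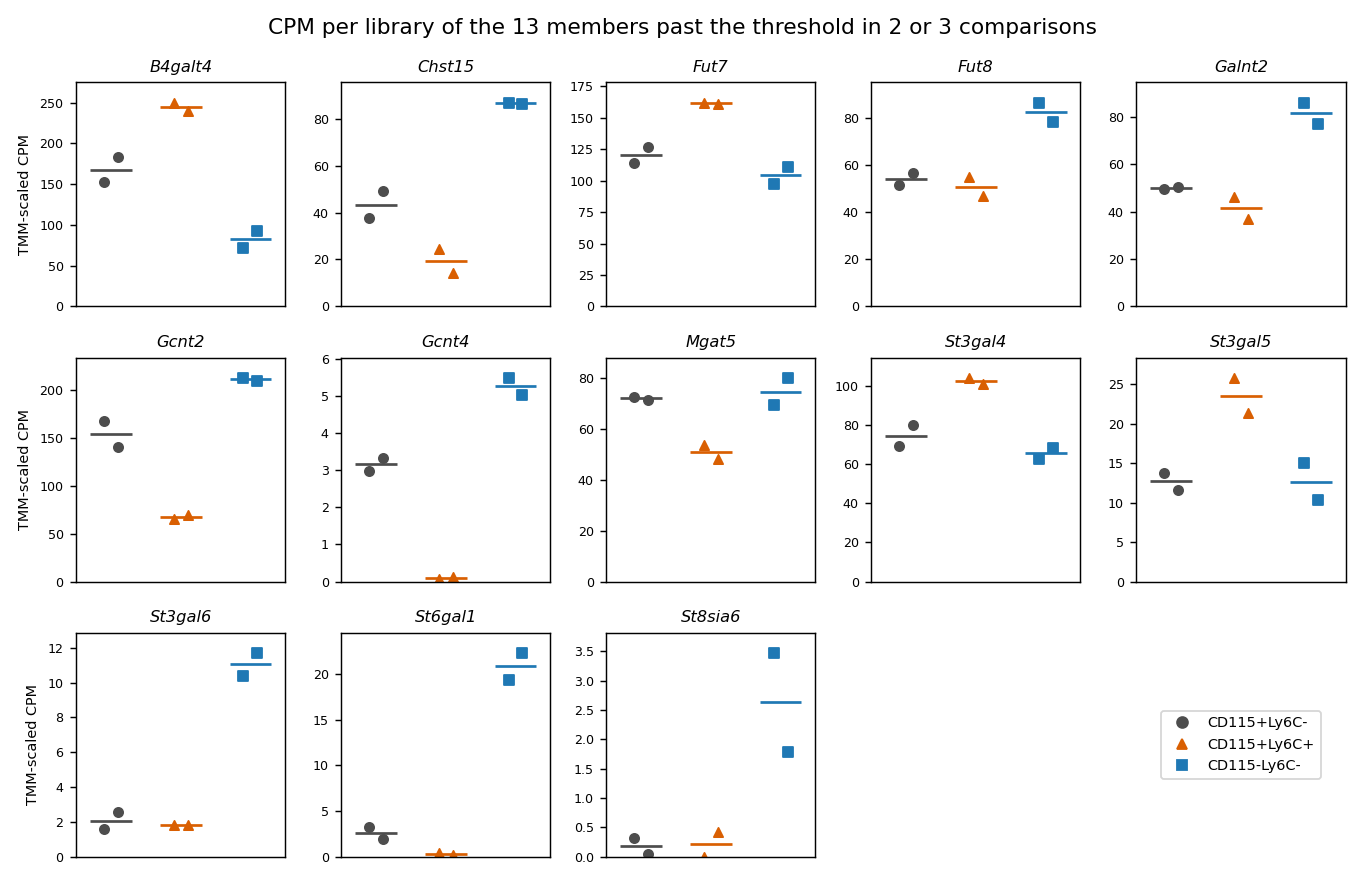
TMM-scaled CPM in each library (points) and subset mean (line) of the 13 genes called in 2 or 3 comparisons, each panel with its own axis from 0. St6gal1 and St3gal6 are highest in CD115-Ly6C-, Gcnt2 and Gcnt4 are lowest in CD115+Ly6C+, and B4galt4, Fut7 and St3gal4 are highest in CD115+Ly6C+.

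Fucosylation of sialylated lactosamine completes the selectin ligand of leukocytes. Fut7 (chr2:25422351-25426374), the main enzyme of this step, stood at 114 and 127 CPM in single-positive cells, 162 and 161 in double-positive cells and 97.6 and 111 in double-negative cells. Both double-positive libraries lay above the other 4, and no 2 subsets overlapped. The double-negative subset was 1.55-fold lower than double-positive cells (log2 -0.64 ± 0.11 SE, edgeR adjusted p = 0.00287). The rise between the CD115+ subsets was 0.43 ± 0.11 SE, with an edgeR adjusted p of 0.0490 that held in 4 of 16 alternatives. Fut4, its partner in myeloid cells, was named after its values were seen and stood at 27.0 and 27.7, 26.2 and 31.5, and 21.7 and 22.8 CPM, with no call and an edgeR adjusted p of 0.0831 between the outer subsets.

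Enzymes of glycolipids also went in different directions. St3gal5, which makes the ganglioside GM3, stood at 13.8 and 11.6 CPM in single-positive cells, 25.8 and 21.3 in double-positive cells and 15 and 10.3 in double-negative cells. The Ly6C- subsets overlapped, and the double-positive subset was above them by 0.89 ± 0.23 SE on the log2 scale in both comparisons (edgeR adjusted p = 0.0441 and 0.0147). B3gnt5, which begins the lacto-series, had 193 and 194, 134 and 132, and 152 and 158 CPM and so was highest in single-positive cells, with a log2 fold change of -0.54 ± 0.10 SE in double-positive cells (edgeR adjusted p = 0.0147, held in 11 of 16 alternatives). B4galt6, a lactosylceramide synthase gene, stood at 3.30 and 4.24, 2.06 and 3.11, and 6.29 and 7.02 CPM and was 2.57-fold higher in double-negative cells than in double-positive cells (edgeR adjusted p = 0.0143). B3galt4, of the ganglioside pathway, stood at 13.6 and 15.5, 20.6 and 17.1, and 11.7 and 15.9 CPM and was called in no comparison. The galactosyltransferase genes B3galt5 and B3galt2 were rare. B3galt5 stood at 0.367 and 0.743 CPM, 0.223 and 0.719, and 2.42 and 2.89, and its level in double-negative cells was 5.61-fold that in double-positive cells (edgeR adjusted p = 0.0206). B3galt2 had 22 counts in single-positive cells, 0 counts in double-positive cells and 29 counts in double-negative cells. It passed the filter through libraries of the Ly6C- subsets alone, so its call is no support for a difference from double-positive cells. Set against a floor of 3 counts, it was at least 8.38-fold higher in double-negative cells than in double-positive cells (edgeR adjusted p = 0.0142).

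Sulfation was led by 2 chondroitin sulfotransferase genes with opposite orders. Chst15 (chr7:132235779-132323534), which makes the doubly sulfated chondroitin unit, stood at 37.6 and 49.2 CPM in single-positive cells, 24.5 and 14.3 in double-positive cells and 86.9 and 86.5 in double-negative cells. No 2 subsets overlapped. Against single-positive cells the log2 fold change was -1.16 ± 0.24 SE in double-positive cells (edgeR adjusted p = 0.0228) and 1.0 ± 0.23 SE in double-negative cells (edgeR adjusted p = 0.0246), and the outer subsets differed 4.47-fold (edgeR adjusted p = 3.21e-04). Chst12, which had the highest mean FPKM of the Chst genes, had 66.4 and 68.1, 81.8 and 93.9, and 56.3 and 60.5 CPM and was 1.5-fold lower in double-negative cells than in double-positive cells (edgeR adjusted p = 0.00565). B4galt7, which builds the linker that joins such chains to protein, stood at 36.2 and 42.0, 46.8 and 53.0, and 36.2 and 38.9 CPM and was 1.33-fold lower in double-negative cells than in double-positive cells (edgeR adjusted p = 0.0468, held in 5 of 16 alternatives).

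Likeness of profiles among the 28 called genes is given as Pearson's r of log2(CPM + 1) over the 6 libraries, as a description with no test. These genes were chosen for differing between the same subsets, which by itself gives high values of r, and libraries of a subset share their source. Among them, closest to Fut7 were St3gal4 (r = 0.995) and B3gnt8 (0.985), and closest to B4galt4 was Fut7 (0.933). Gcnt2 was closest to Gcnt4 (0.989), and St6gal1 to B3gnt7 (0.982) and Galnt2 (0.964). The profile nearest to that of St3gal6 was B3galt5 (0.972), followed by Fut8 (0.963).

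Genes that supply or surround these enzymes were counted in 7 lists, and the share of each list that was called is given beside that of all genes, which was 9.60%, 15.2% and 39.3% in the 3 comparisons (double-positive against single-positive, double-negative against single-positive, and double-negative against double-positive). Lists were not tested. Of the 39 genes tested for donor sugar synthesis and transport, 3 were higher and 0 lower in double-positive cells than in single-positive cells, 1 and 4 in double-negative cells than in single-positive cells, and 1 and 13 in double-negative cells than in double-positive cells, with median log2 fold changes of 0.16, -0.08 and -0.29 against -0.01, 0.02 and 0.03 over all genes. The called shares, 7.69%, 12.8% and 35.9%, were below those of all genes in each comparison. Papss2, which makes the sulfate donor, stood at 2.68 and 3.02, 7.92 and 13.7, and 1.21 and 0.597 CPM and fell by 3.57 on the log2 scale in the last of these comparisons (edgeR adjusted p = 5.50e-04). Ugdh, which makes the glucuronic acid donor, fell by 1.48 (edgeR adjusted p = 1.35e-04), and Uap1, which makes the N-acetylglucosamine donor, by 0.87 (edgeR adjusted p = 7.18e-04). Gne, which begins sialic acid synthesis, was the 1 gene that rose there, by 0.94 ± 0.15 SE (edgeR adjusted p = 0.00180). Of the 41 genes for assembly and trimming of the N-linked precursor, 0 were higher and 1 lower, 1 and 6, and 4 and 15 in the 3 comparisons, with medians of 0.07, -0.22 and -0.34 and called shares of 2.44%, 17.1% and 46.3%. Oligosaccharyltransferase genes were among the 15: Ostc fell by 0.62, Ddost by 0.63 and Rpn1 by 0.53 on the log2 scale (edgeR adjusted p = 0.00193, 0.00297 and 0.00310).

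Among 25 glycosyltransferase genes outside the 11 families, 1 was higher and 2 lower, 2 and 1, and 7 and 2 in the 3 comparisons, with medians of -0.14, 0.09 and 0.33. Called shares of 12%, 12% and 36% were near those of all genes. C1galt1c1, the chaperone of the enzyme that extends the O-linked core, stood at 74.9 and 74.8 CPM in single-positive cells, 152 and 212 in double-positive cells and 41.1 and 52.2 in double-negative cells. It was called in all 3 comparisons (log2 1.28, -0.68 and -1.96, edgeR adjusted p = 0.00449, 0.0358 and 1.19e-04). Pomgnt2, an enzyme of O-mannose chains, had the opposite order at 16.3 and 19.7, 6.91 and 6.77, and 42.5 and 35.3 CPM (log2 -1.39, 1.11 and 2.51, edgeR adjusted p = 0.00402, 0.00533 and 4.67e-05). Mfng, which modifies Notch receptors, rose in double-negative cells by 1.13 and 1.45 against the CD115+ subsets (edgeR adjusted p = 0.00521 and 4.90e-04).

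The list for heparan and chondroitin chains also held the Gal3st, Tpst and Sumf genes, which are not specific to these chains. Of its 30 genes tested, 2 were higher and 1 lower, 1 and 0, and 4 and 3, with medians of 0.12, 0.05 and 0.06. Tpst2 was among the 2 higher between the CD115+ subsets, and Tpst2 and Sumf2 were among the 3 lower between the outer subsets. The called shares were 10%, 3.33% and 23.3%, the last 2 of them below those of all genes. Hs3st1, a heparan sulfotransferase gene, stood at 10.4 and 11.4, 2.68 and 2.28, and 21.6 and 21.7 CPM and was called in all 3 comparisons (log2 -2.13, 0.99 and 3.12, edgeR adjusted p = 0.00166, 0.0135 and 4.10e-05). Sulf2, which removes sulfate from heparan, ran the other way at 2.10 and 1.91, 8.42 and 8.08, and 1.06 and 0.846 CPM (log2 2.04 between the CD115+ subsets and -3.11 between the outer ones, edgeR adjusted p = 0.0104 and 3.67e-04). Tpst2, which sulfates tyrosines of selectin ligand proteins, was higher in double-positive cells than in single-positive cells by 0.40 ± 0.10 SE (edgeR adjusted p = 0.0468).

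The next lists hold proteins that carry or read the chains. Of 13 selectins and ligand proteins, 2 were higher and 1 lower, 3 and 2, and 6 and 5 in the 3 comparisons, with medians of 0.12, 0.19 and 0.36 and called shares of 23.1%, 38.5% and 84.6%. Selplg, the protein backbone that Fut7 and St3gal4 modify into the P-selectin ligand, stood at 1060 and 953 CPM in single-positive cells, 1290 and 1300 in double-positive cells and 697 and 800 in double-negative cells. The double-negative subset was lower than each CD115+ subset (log2 -0.43 and -0.79, edgeR adjusted p = 0.0381 and 0.00103), and the step between the CD115+ subsets was 0.36 with an edgeR adjusted p of 0.0791. Cd34, a sialomucin of progenitors, had the opposite order at 1110 and 967, 604 and 554, and 1430 and 1370 CPM. Lamp1, which encodes a lysosomal membrane protein, and the integrin genes Itgb2 and Itgam are on the same list and were each called in at least 1 comparison. Of 15 lectins that bind sialic acid or galactose, 3 were higher and 2 lower, 3 and 3, and 6 and 6, with medians of 0.39, 0.12 and 0.27 and called shares of 33.3%, 40% and 80%. The galectin gene Lgals3 stood at 12.4 and 25.0, 176 and 199, and 4.38 and 8.81 CPM, and Lgals1 at 1050 and 1140, 1910 and 1930, and 521 and 611. Both were highest in double-positive cells and lowest in double-negative cells. The siglec genes Cd33 and Siglech were highest in double-negative cells, at 49.2 and 50.8 CPM and at 169 and 170 CPM, against at most 20.7 and 88.7 elsewhere. Cd22, named after its values were seen, ran the other way at 16.9 and 25.0, 37.8 and 34.0, and 13.2 and 23.4 CPM, with a log2 fold change of -0.97 between the outer subsets (edgeR adjusted p = 0.0243).

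Of 32 genes for glycan removal, 2 were higher and 1 lower, 2 and 3, and 4 and 10 in the 3 comparisons, with medians of 0.17, 0.12 and -0.00. Called shares of 9.38%, 15.6% and 43.8% were near those of all genes. Sgsh, which removes sulfate from heparan in lysosomes, stood at 10.3 and 10.8, 12.6 and 10.2, and 23.7 and 20.5 CPM and was higher in double-negative cells than in either CD115+ subset (log2 1.07 and 0.96, edgeR adjusted p = 0.0103 and 0.00556).

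The strandedness of the libraries is not given in the sources used here. Of the 28 called genes, 13 share exon bases with another gene of the GENCODE M21 annotation, and reads there cannot be told apart. For 2 of them, St3gal6 and Mgat5, that other gene is listed in the tables, and for Mgat5 it is Tmem163 with 140 shared bases and at most 0.106 CPM. Galnt2 and B3gnt2 share 2420 and 2449 exon bases with another gene model on the same strand.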

How the data were processed

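The 6 libraries were polyA-selected and PCR-amplified, per the labels' protocols, and no molecular identifiers are mentioned. Bowtie2, RSEM and the build mm10 are named per the submitters' processing notes, with no versions (not given in the sources used here). The deposited tables hold expected counts, which the authors estimated per gene and of which 12.58% above 0 were not whole, and the authors' FPKM, per the file headers. A gene missing from a table was taken as 0.

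Expected counts were rounded and tested with edgeR 4.0.16 in R 4.3.3 (TMM scaling, filterByExpr with a minimum count of 10 and a minimum total of 15, quasi-likelihood F test, Benjamini-Hochberg over 12127 genes, threshold 0.05), with all 6 libraries in 1 fit. The common dispersion corresponds to a coefficient of variation of 15.2%, on 3 residual degrees of freedom. A log2 fold change divided by the square root of F gave its SE. The procedure was tested on simulated data. The 16 alternatives changed the scaling, filter, tool (DESeq2 1.42.0, limma 3.58.1 on log2(FPKM + 1)), libraries fitted, a replicate block, a trend on gene length, or left out 1 library.

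Genes and lists were chosen with earlier results of these data known. Named were each called gene, the 10 with the highest mean FPKM, the highest of each family, and up to 4 genes per list and comparison with the smallest adjusted p. Fut4, Gcnt1 and Cd22 were added after their values were seen. So were the levels or orders of Cd79a, Cd79b, Ms4a1, Ebf1, Pax5, Flt3, Kit, Irf8, Spi1, Csf2ra, Cx3cr1, Ccr9, Spib, Pacsin1, Tcf4, Bst2 and Klk1 from the marker lists. The level of Csf3r, from the neutrophil list, was also added after it was seen. Values of 2 list genes are left out here.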

Additional observations from a re-analysis of the deposited data

How the results depend on the processing

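Of 45 calls, 20 held in all 16 alternatives, 25 were lost in at least 1 and 0 changed direction; for 4 rare genes (Galnt9, B3galt2, B3galt5 and St8sia6) 13 to 15 of the alternatives gave a value. Between the CD115+ subsets, 10 genes were called, against 6 by limma on log2(FPKM + 1) (4 of them shared), 4 with the length trend removed (all 4 shared), and 2 to 8 when 1 library was left out. Over all genes tested, log2 fold changes followed gene length in that comparison (Spearman -0.33 across genes, which are not independent). The same value was 0.18 between the Ly6C- subsets and 0.33 between the outer subsets. The median gene length was 2810 bases over all genes tested and 3344 bases over the 59 genes. Between the Ly6C- subsets, 8 were called, and 3 to 9 with 1 library left out. Between the outer subsets, 27 were called, and 17 to 25 with 1 library left out; fewer libraries also leave fewer degrees of freedom. With library totals as the scale the median of all genes moved to 0.14 between the Ly6C- subsets and to 0.22 between the outer ones. The calls of the 4 genes higher in double-positive cells among the CD115+ subsets were lost together with library totals (edgeR adjusted p = 0.0688 for Fut7, 0.0660 for St3gal4, 0.0601 for St3gal5 and 0.0642 for B4galt4), and the cause was not tested.

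Deviations of same-numbered libraries from their subset means correlated across genes at -0.004 between the CD115+ subsets and -0.01 between the Ly6C- subsets. Between the outer subsets the value was 0.152. With 2 libraries per subset, these values cannot decide whether the replicate numbers pair the libraries. With a replicate block, 7, 6 and 24 genes were called in the 3 comparisons.

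Calls lost without 1 library, with the highest edgeR adjusted p that leaving one out gave, were as follows. Between the CD115+ subsets, Mgat5 reached 0.181, Fut7 0.249, St3gal4 0.239 and B4galt4 0.263 without single-positive replicate 1, B3gnt5 0.0834 without the same library, Chst15 0.107 without single-positive replicate 2, St3gal5 0.169 without double-positive replicate 1 and St6gal1 0.0558 without double-positive replicate 2. Between the Ly6C- subsets, Galnt2 reached 0.109, Gcnt2 0.173, St8sia6 0.250 and Fut8 0.137 without double-negative replicate 1, and Chst15 0.168 without single-positive replicate 1. Between the outer subsets, Mgat5 reached 0.0738, Galnt10 0.208, St3gal1 0.190, St3gal5 0.0830 and B3gnt2 0.246 without double-negative replicate 2, Mgat2 0.165, B4galt7 0.212 and Galnt9 0.0862 without double-positive replicate 2, B4galt6 0.0752 and B3galt5 0.108 without double-positive replicate 1, and St8sia6 0.137 and B3galt2 0.0814 without double-negative replicate 1.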
